A study of Mus musculus with 9 samples.

Results

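Proteoglycans of the matrix and 2 enzymes of glycosaminoglycan synthesis were followed in cultured mouse cardiac fibroblasts through 10 genes chosen by symbol: Dcn, Bgn, Lum, Fmod, Ogn, Aspn, Vcan, Hspg2, Has2 and Dse. All 10 were among the 56953 genes of the deposited expression table, each on 1 line, and 9 of them were among the 14215 genes tested. Aspn stayed below the limit for testing, which was 1 TPM in at least 3 libraries. TPM is the number of transcripts of a gene scaled for gene length and for the total of its library, so levels can be set side by side between genes. The cells were primary fibroblasts from hearts of adult male wild-type C57BL/6N mice, digested by Langendorff perfusion and freed of cardiomyocytes by gravity settling. At 70-80% confluency they were infected with an adenovirus and kept in medium with 10% fetal bovine serum until 72 h. The 9 polyA RNA libraries fell into 3 groups of 3: Ad-GFP received a GFP virus as the control, Ad-JP2 a virus for junctophilin-2, and Ad-shJP2 a virus for a short hairpin RNA against junctophilin-2. Junctophilin-2, the product of Jph2, ties the endoplasmic reticulum to the plasma membrane, and the series asks what it does in fibroblast activation. All groups shared genotype, culture and exposure to a virus, and no uninfected group was among the samples.

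Proteoglycans are core proteins that carry glycosaminoglycan chains, long sulfated polymers of paired sugars. The small leucine-rich proteoglycans decorin, biglycan, lumican, fibromodulin, osteoglycin and asporin bind collagen and help set the width and spacing of its fibrils. Versican and perlecan are large, and hyaluronan is a chain made at the plasma membrane without a core protein. In the injured heart, fibroblasts are a main source of these molecules, which hold water, bind growth factors and space the collagen of a scar.

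Jph2 itself was listed at 128 to 132 TPM in Ad-GFP and at 637 to 737 TPM in Ad-JP2, a log2 difference of 2.40 (SE 0.048, limma adjusted p = 3.07e-08). In the libraries labelled Ad-shJP2 it was listed at 116 to 123 TPM, and its log2 difference from Ad-GFP of -0.11 did not pass the test (SE 0.048, limma adjusted p = 0.0724). The knockdown that the label names was therefore not called in the RNA, and every direction given for Ad-shJP2 below is that of libraries labelled so. Depth, estimated from the TPM values, was about 40.5 to 45.7 M reads in Ad-GFP libraries, 37.0 to 41.8 M in those of Ad-JP2 and 21.3 to 33.3 M in those of Ad-shJP2. All 8 fibroblast markers were above 1 TPM in every group. Their summed level was 11200 to 11300 TPM in Ad-GFP, 10900 to 11700 TPM in Ad-JP2 and 7410 to 7650 TPM in Ad-shJP2. In Ad-JP2, 3 of the 8 were called higher and 0 lower than in Ad-GFP, beside 13.4% and 1.64% of all genes tested. In Ad-shJP2, 7 of the 8 were called lower and 1 was called higher than in Ad-GFP, beside 37.7% and 21.8% of all genes. The 6 macrophage and leukocyte markers summed to 2390 to 2420 TPM in Ad-GFP, 2180 to 2220 TPM in Ad-JP2 and 2790 to 2840 TPM in Ad-shJP2. Against Ad-GFP, 1 was called higher and 2 lower in Ad-JP2, and 4 higher and 1 lower in Ad-shJP2, beside the same shares of all genes. Of 6 cardiomyocyte markers only Tnnt2 reached 1 TPM. Their sum was 28.8 to 30.2, 24.4 to 29.9 and 19.7 to 21.8 TPM in Ad-GFP, Ad-JP2 and Ad-shJP2. Endothelial markers summed to at most 12.5 TPM, epicardial markers to at most 24.9 TPM and pericyte and smooth muscle markers to at most 54.0 TPM. Of these last 6 markers, 3 had means above 1 TPM in every group. Mcam had 34.6, 35.1 and 46.1 TPM in Ad-GFP, Ad-JP2 and Ad-shJP2, and Myh11 and Notch3 had at most 6.25 TPM. In Ad-shJP2, 1 of these 3 was called higher and 2 lower than in Ad-GFP. The pericyte marker Kcnj8 was listed at 0 in every library of Ad-GFP and Ad-shJP2, and Abcc9 in every library of Ad-shJP2. The part of these shifts in the results that follow was not tested. In bulk RNA, fewer cells of a type and less RNA per cell cannot be told apart.

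The 10 genes spanned a wide range of levels. In Ad-GFP the order of mean TPM was Bgn, Hspg2, Dcn, Dse, Vcan, Fmod, Lum, Ogn, Has2 and Aspn. Bgn, at 3876 ± 9.37 TPM (SD, n = 3), was the 19th most abundant gene tested. Perlecan and decorin lay at the 95.5 and 92.2 percentiles of the tested genes, Dse at 71.4, Vcan at 40.1 and Fmod at 35.6. Lum, Ogn and Has2 lay at the 6.28, 3.48 and 1.48 percentiles. The library values of neighbours in this order overlapped for Lum and Ogn and for Ogn and Has2. In Ad-JP2, Has2 moved above Lum and Ogn, with values that overlapped those of Lum, and in Ad-shJP2, Dse moved down to the level of Vcan, with overlapping values. Bgn alone made up 89.4% ± 0.130 of the summed TPM of the 10 genes with the control virus, 87.7% ± 0.137 in Ad-JP2 and 92.0% ± 0.0776 in Ad-shJP2 (SD, n = 3 each). The sum was 4337 ± 16.8 TPM in Ad-GFP, 4387 ± 122 TPM in Ad-JP2 and 3297 ± 26.0 TPM in Ad-shJP2 (SD, n = 3 each). Without Bgn it was 461 ± 7.42, 542 ± 19.0 and 265 ± 4.16 TPM. The summed TPM of the other 9 genes was thus higher in Ad-JP2 and lower in Ad-shJP2 in every library. Most of that sum was Hspg2 and Dcn, with means of 258.1 and 154.0 TPM in Ad-GFP and 278.5 and 189.4 TPM in Ad-JP2. As given below, Hspg2 was not called in Ad-JP2, and the Dcn call there was lost with GC content corrected.

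**Figure D1:**
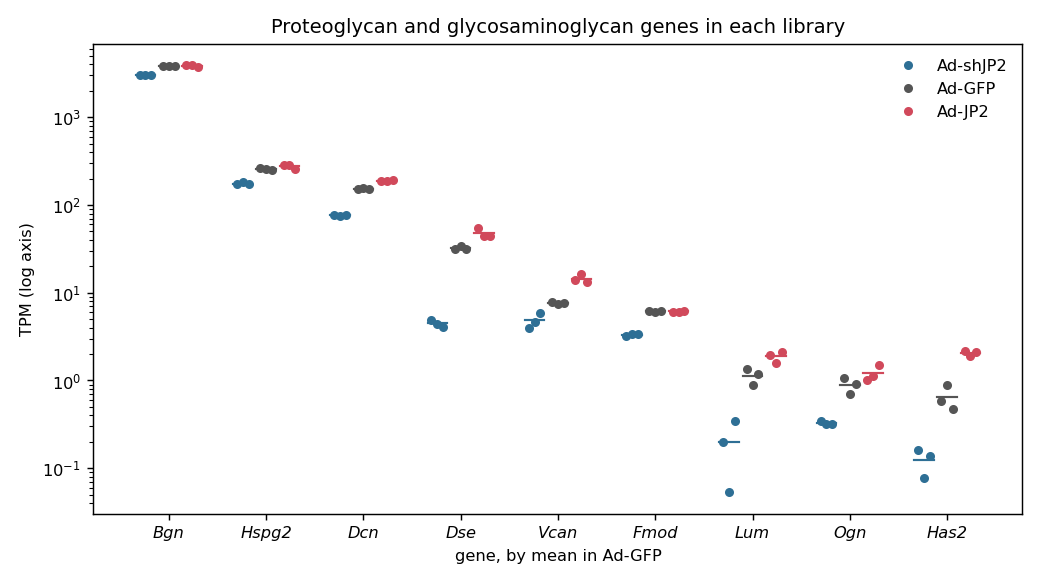
TPM on a log axis of the 9 tested genes in each of the 9 libraries, with genes ordered by their mean in Ad-GFP; each point is 1 library, coloured by virus, and the short bars are group means. Aspn, with values of 0, is not drawn. The Dse points of Ad-shJP2 lie between 4.12 and 4.95 TPM, below all those of Ad-GFP at 31.7 to 34.2 TPM.

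Against Ad-GFP, 4 of the 9 tested genes were called higher in Ad-JP2 (Dcn, Vcan, Has2 and Dse) and 0 lower by limma at an adjusted p under 0.05. At an unadjusted p under 0.05 there were 6 higher and 0 lower. Over all genes tested, 15.0% were called in this comparison, 13.4% higher and 1.64% lower. With GC content and length corrected, 2 of the 9 were called higher and 1 lower, beside 6.39% and 7.67% of all genes. With GC content alone, 4 were higher and 0 lower, beside 7.81% and 7.34%. In the libraries labelled Ad-shJP2, 9 of 9 were called lower than in Ad-GFP, where 59.4% of all genes were called, 37.7% lower and 21.8% higher. With GC content and length corrected 6 of the 9 stayed called lower, beside 27.0% of all genes. With GC content alone 7 did, beside 27.3%. Between Ad-JP2 and Ad-shJP2, 9 of 9 were called higher in Ad-JP2, where 64.4% of all genes were called, 40.3% higher and 24.1% lower. With GC content and length corrected, 6 were higher and 1 lower, beside 28.6% and 32.7% of all genes. With GC content alone, 8 were higher and 1 lower, beside 29.2% and 34.6%. The 1 called lower was Ogn with both corrections. Both comparisons with Ad-GFP use the same 3 control libraries. The median log2 difference of the 9 was 0.30 in Ad-JP2 against Ad-GFP (0.01 over all genes tested), -0.58 in Ad-shJP2 against Ad-GFP (-0.12 over all genes) and 1.27 in Ad-JP2 against Ad-shJP2 (0.10 over all genes). Lum, Ogn and Has2 reached 1 TPM in 5, 4 and 3 libraries and in none of Ad-shJP2, so they entered the test through groups in which they were high. For Has2 these 3 were all Ad-JP2 libraries, so its call there is of a gene that passed only through that group. Of the 6 genes with a mean of at least 5 TPM over all libraries, 3 were higher in Ad-JP2 and 6 were lower in Ad-shJP2, with medians of 0.20 and -0.65. The values of 5 of the 10 genes lay above all of Ad-GFP in Ad-JP2, as did 22.4% of genes tested, while 9.74% lay below. Those of 9 of the 10 lay below all of Ad-GFP in Ad-shJP2, as did 40.9% of genes tested, while 24.5% lay above. Those of 10 of the 10 lay higher in every Ad-JP2 library than in any of Ad-shJP2, as did 41.7% of genes tested, while 25.4% lay lower. Among these 10 is Aspn, which was not tested, at 0.14 TPM or more in Ad-JP2 and 0.064 TPM or less in Ad-shJP2. A permutation test of 3 libraries against 3 is exact but cannot give a two-sided p below 0.1. Nothing in the labels tells whether the replicates came from separate cultures or animals, and the p-values then measure only the spread between these libraries, which may be technical. All adjusted p-values below come from limma with Benjamini-Hochberg adjustment over the 14215 genes, on log2(TPM + 1), a scale that understates changes of low genes.

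**Figure D2:**
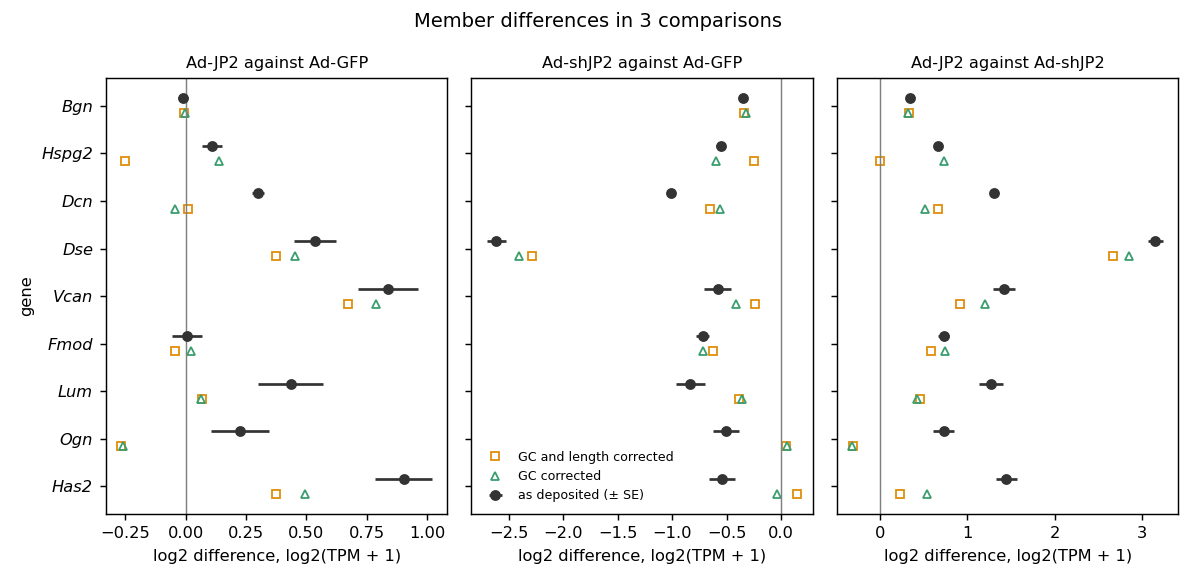
Log2 difference on log2(TPM + 1) of the 9 tested genes in 3 comparisons; filled circles with bars are the values as deposited ± SE, open squares are after correction for GC content and length and open triangles after correction for GC content alone. Dse lies at -2.62 in Ad-shJP2 against Ad-GFP, and its corrected values stay on the same side of 0.

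Dse fell further in Ad-shJP2 than any of the other 8 genes. It encodes dermatan sulfate epimerase 1, which turns glucuronic acid of chondroitin into iduronic acid and so makes dermatan sulfate, the chain found on decorin and biglycan. Dse was listed at 31.7, 34.2 and 31.9 TPM in Ad-GFP, at 54.4, 44.8 and 44.4 TPM in Ad-JP2 and at 4.95, 4.40 and 4.12 TPM in Ad-shJP2. The 3 groups did not overlap, with Ad-JP2 highest and Ad-shJP2 lowest. The log2 difference was 0.54 in Ad-JP2 (SE 0.087, adjusted p = 0.00285) and -2.62 in Ad-shJP2 (SE 0.087, adjusted p = 3.06e-08). The mean of Ad-JP2 was 10.7 times that of Ad-shJP2. Decorin RNA exceeded Dse RNA 4.73 ± 0.117 times in Ad-GFP, 3.99 ± 0.444 times in Ad-JP2 and 17.0 ± 1.44 times in Ad-shJP2 (SD, n = 3 each), as a ratio of TPM. Dsel, the other epimerase gene, was low, with means of 1.16, 2.07 and 0.529 TPM in Ad-GFP, Ad-JP2 and Ad-shJP2. Dsel was called lower in Ad-shJP2 than in Ad-GFP (log2 difference -0.50, SE 0.178, adjusted p = 0.0375). It was also called higher in Ad-JP2 than in Ad-shJP2 (0.97, SE 0.178, adjusted p = 0.00107). The latter call was lost after correction for GC content (0.11, adjusted p = 0.618). Chst14, the sulfotransferase that works after the epimerase and was chosen after its values were seen, had means of 44.3, 43.2 and 36.2 TPM, and its log2 difference of -0.28 in Ad-shJP2 passed the test (SE 0.037, adjusted p = 0.000146).

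Promoter sequences were looked up in the RefSeq table of build GRCm38.p6, which held 7 of the 10 genes: Bgn, Fmod, Ogn, Aspn, Vcan, Hspg2 and Dse. They cover 250 bases before and 50 after the annotated start of transcription. Those of Dse and Vcan are shown because, of the 7, these were the genes called in all 3 comparisons, and that of Bgn because it is the most abundant of the 10 and was called in Ad-shJP2 but not in Ad-JP2. Capitals mark each GC box, GGGCGG or its reverse complement CCGCCC, a sequence that Sp1 is known to bind. Dse lies at chr10:34207186-34207485 and Vcan at chr13:89742463-89742762, both on the minus strand, and Bgn at chrX:73483351-73483650 on the plus strand.
Dse: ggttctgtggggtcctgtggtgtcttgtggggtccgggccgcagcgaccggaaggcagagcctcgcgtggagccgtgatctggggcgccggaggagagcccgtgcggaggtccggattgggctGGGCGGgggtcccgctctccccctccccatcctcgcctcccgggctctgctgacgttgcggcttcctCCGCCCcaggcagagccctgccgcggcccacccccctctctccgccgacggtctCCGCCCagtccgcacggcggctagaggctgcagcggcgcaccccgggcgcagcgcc
Vcan: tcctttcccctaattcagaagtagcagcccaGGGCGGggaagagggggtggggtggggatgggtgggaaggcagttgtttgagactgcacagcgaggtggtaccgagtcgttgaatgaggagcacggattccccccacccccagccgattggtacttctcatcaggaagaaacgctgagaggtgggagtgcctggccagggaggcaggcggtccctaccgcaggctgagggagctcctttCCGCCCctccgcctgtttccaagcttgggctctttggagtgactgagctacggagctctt
Bgn: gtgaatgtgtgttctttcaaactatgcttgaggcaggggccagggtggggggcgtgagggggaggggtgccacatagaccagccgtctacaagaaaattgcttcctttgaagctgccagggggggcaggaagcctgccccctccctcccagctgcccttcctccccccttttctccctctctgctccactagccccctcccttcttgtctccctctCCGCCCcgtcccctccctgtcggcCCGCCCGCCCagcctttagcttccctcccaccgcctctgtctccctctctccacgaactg
The Dse window held 3 GC boxes at a GC content of 75.3%, the Vcan window 2 at 61.0% and the Bgn window 3, of which a pair overlap, at 63.7%. The Hspg2 window held 5 and the other windows none, while 35.7% of 32851 RefSeq promoters of the same length held at least 1. TATAAA, the TATA box, lay in the windows of Ogn and Aspn and in 13.6% of all promoters. The AP-1 sequence TGANTCA lay in 0 of the 7 and in 7.81% of all. The TEAD sequence GGAATG lay in the Ogn window and in 14.7% of all, and the NFAT core GGAAAA in the Aspn window and in 23.4% of all. Both strands were searched, and a match of letters is a description only.

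Decorin and biglycan, close paralogs that both carry dermatan sulfate, were both called lower in Ad-shJP2, and Dcn alone of the pair was called in Ad-JP2. Dcn was listed at 152.1, 157.1 and 152.7 TPM in Ad-GFP, at 189.4, 188.2 and 190.8 TPM in Ad-JP2 and at 77.1, 75.0 and 76.0 TPM in Ad-shJP2. All Ad-JP2 values lay above and all Ad-shJP2 values below those of Ad-GFP. Its log2 difference was 0.30 in Ad-JP2 (SE 0.025, adjusted p = 6.38e-05) and -1.01 in Ad-shJP2 (SE 0.025, adjusted p = 6.26e-09). The Ad-JP2 call was lost when GC content was corrected for, alone (-0.04, adjusted p = 0.314) or with length (0.01, adjusted p = 0.843), while the Ad-shJP2 call held at smaller values of -0.56 and -0.66. Bgn was listed at 3879.5, 3883.7 and 3865.8 TPM in Ad-GFP, at 3904.4, 3906.2 and 3724.9 TPM in Ad-JP2 and at 3009.9, 3054.9 and 3030.5 TPM in Ad-shJP2. Ad-JP2 spanned Ad-GFP on both sides, and Ad-shJP2 lay below both. The log2 difference of Bgn was -0.01 in Ad-JP2 (SE 0.020, adjusted p = 0.789) and -0.35 in Ad-shJP2 (SE 0.020, adjusted p = 8.12e-07), a fall of 21.8% in mean TPM against 50.6% for Dcn. Bgn exceeded Dcn, as a ratio of TPM, 25.2 ± 0.408 times in the control, 20.3 ± 0.676 times in Ad-JP2 and 39.9 ± 0.841 times in Ad-shJP2 (SD, n = 3 each), with no overlap between groups. These ratios were not corrected for GC content, which was 42.8% for Dcn and 52.5% for Bgn.

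Fibromodulin and lumican, keratan sulfate proteoglycans that share collagen binding sites, were both called lower in Ad-shJP2, and neither was called in Ad-JP2. Fmod was listed at 6.17, 5.99 and 6.22 TPM in Ad-GFP, at 6.10, 6.10 and 6.25 TPM in Ad-JP2 and at 3.19, 3.40 and 3.38 TPM in Ad-shJP2. Its Ad-JP2 and Ad-GFP values overlapped and its Ad-shJP2 values lay below both. The log2 difference of Fmod in Ad-shJP2 was -0.72 (SE 0.061, adjusted p = 8.97e-06), and in Ad-JP2 it was 0.005 (SE 0.061, adjusted p = 0.974). Lum was listed at 1.34, 0.877 and 1.18 TPM in Ad-GFP, at 1.93, 1.60 and 2.10 TPM in Ad-JP2 and at 0.199, 0.053 and 0.341 TPM in Ad-shJP2. Although its 3 groups did not overlap, the log2 difference of 0.44 in Ad-JP2 did not pass the test (SE 0.135, adjusted p = 0.0655). It passed with the replicate number as a block (adjusted p = 0.0395), although the numbers were not found to pair the libraries. In Ad-shJP2 the log2 difference of Lum was -0.83 (SE 0.135, adjusted p = 0.000615). It was -0.36 with GC content corrected (adjusted p = 0.0407), -0.39 with GC content and length (adjusted p = 0.0301), and -1.57 with the latter at a pseudocount of 0.1 (adjusted p = 0.00569). These levels rest on about 38.9 to 66.7 reads a library in Ad-GFP and 2.1 to 12.9 in Ad-shJP2.

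Osteoglycin and asporin, small leucine-rich members with neighbouring genes, were near the limit of detection. Ogn was listed at 1.07, 0.696 and 0.914 TPM in Ad-GFP, at 1.01, 1.14 and 1.49 TPM in Ad-JP2 and at 0.344, 0.322 and 0.317 TPM in Ad-shJP2. Ad-GFP and Ad-JP2 overlapped, and Ad-shJP2, with about 5.0 to 7.3 reads a library, lay below both. The log2 difference of Ogn was 0.22 in Ad-JP2 (SE 0.121, adjusted p = 0.301) and -0.51 in Ad-shJP2 (SE 0.121, adjusted p = 0.00575). The Ad-shJP2 call ended under quantile normalization (-0.26, adjusted p = 0.122), and its direction turned after correction for GC content (0.06, adjusted p = 0.696). Aspn was listed at 0, 0.16 and 0.05 TPM in Ad-GFP, at 0.336, 0.304 and 0.14 TPM in Ad-JP2 and at 0, 0.064 and 0 TPM in Ad-shJP2. With at most about 6.1 reads in any library, no fold change is given for it.

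Several of the 10 lie beside other proteoglycan genes in RefSeq's annotation of GRCm38.p6, and these neighbours were looked at after their values were seen. Dcn and Lum are followed by Kera and Epyc, both listed at 0 in all 9 libraries. Ogn and Aspn lie in a row with Ecm2 and Omd, which had means of 0.652 and 0.0143 TPM in Ad-GFP and 0.150 and 0 TPM in Ad-shJP2. Fmod lies beside Prelp, another collagen-binding small leucine-rich member, and Optc. Prelp was far more abundant than Fmod, at 228.9 ± 2.38 TPM in Ad-GFP against 105.1 ± 2.58 TPM in Ad-shJP2 (SD, n = 3 each), a log2 difference of -1.12 (SE 0.034, adjusted p = 1.67e-08). Its mean in Ad-JP2 was 234 TPM. Hapln1, the link protein gene beside Vcan, was listed at 0 in every library.

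Versican rose in Ad-JP2 and fell in Ad-shJP2. It is a chondroitin sulfate proteoglycan that binds hyaluronan and is plentiful in provisional matrix. Vcan was listed at 7.94, 7.42 and 7.58 TPM in Ad-GFP, at 14.0, 16.4 and 13.2 TPM in Ad-JP2 and at 3.94, 4.61 and 5.94 TPM in Ad-shJP2. The groups did not overlap. The log2 difference was 0.84 in Ad-JP2 (SE 0.124, adjusted p = 0.00166) and -0.58 in Ad-shJP2 (SE 0.124, adjusted p = 0.00311). With GC content and length corrected, the value in Ad-shJP2 was -0.24 and no longer called (adjusted p = 0.118), and with GC content alone it was -0.42 and called (adjusted p = 0.0159).

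Perlecan, the heparan sulfate proteoglycan of basement membranes, was called lower in Ad-shJP2 and was not called in Ad-JP2. Hspg2 was listed at 262.7, 259.7 and 251.8 TPM in Ad-GFP, at 289.0, 286.0 and 260.6 TPM in Ad-JP2 and at 173.2, 181.7 and 171.7 TPM in Ad-shJP2. Ad-JP2 replicate 3 lay within Ad-GFP and the other two above it, while all of Ad-shJP2 lay below. The log2 difference of Hspg2 was 0.11 in Ad-JP2 (SE 0.042, adjusted p = 0.143) and -0.55 in Ad-shJP2 (SE 0.042, adjusted p = 4.74e-06). Without Ad-JP2 replicate 3 the first of these was 0.16 and called (adjusted p = 0.0163). Its gene length of 13137 bases is at the 99.9 percentile, and correction for GC content and length turned the Ad-JP2 value to -0.25 (adjusted p = 0.000392), whereas correction for GC content alone gave 0.14 (adjusted p = 0.0146). In Ad-shJP2 the value was -0.60 with GC content alone (adjusted p = 3.77e-07) and -0.25 with GC content and length (adjusted p = 3.44e-05), and with the latter at a pseudocount of 0.1 the call was lost (-0.04, adjusted p = 0.258).

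Has2, the hyaluronan synthase that makes most of the hyaluronan of many mesenchymal cells, was low in the control. It was listed at 0.582, 0.882 and 0.478 TPM in Ad-GFP, at 2.16, 1.91 and 2.13 TPM in Ad-JP2 and at 0.162, 0.078 and 0.137 TPM in Ad-shJP2. The groups did not overlap, and the Ad-JP2 mean was 3.19 times that of Ad-GFP. Has2 reached 1 TPM in the 3 Ad-JP2 libraries and in no other, so it entered the test only through the group in which it was highest. The log2 difference of Has2 was 0.90 in Ad-JP2 (SE 0.117, adjusted p = 0.000752) and -0.54 in Ad-shJP2 (SE 0.117, adjusted p = 0.00321). These rest on about 37.8 to 66.8 reads in Ad-GFP, 127 to 163 in Ad-JP2 and 5.2 to 8.8 in Ad-shJP2. Correction for GC content and length left 0.37 in Ad-JP2, which was not called (adjusted p = 0.0578), and correction for GC content alone left 0.50, which was called (adjusted p = 0.0189). In Ad-shJP2 the values were 0.15 (adjusted p = 0.286) and -0.04 (adjusted p = 0.794), and with GC content and length corrected at a pseudocount of 0.1 the value was -0.80 and called (adjusted p = 0.0355). Has1 and Has3, the other synthases, did not exceed 0.137 TPM in any library.

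The 10 genes differ in base composition, and base composition moved with the comparisons over all genes. Their transcripts held 34.3% (Aspn) to 60.9% (Hspg2) G and C, against a median of 50.7% for all tested genes with a value. Among all tested genes under 40% GC, where Ogn falls, the median log2 difference was -0.47 in Ad-shJP2 and 0.40 in Ad-JP2. Genes of 40 to 45% GC, the range of Dcn, Lum and Has2, had medians of -0.43 and 0.24, and those of 45 to 50%, the range of Vcan and Dse, had -0.20 and 0.05. At 50 to 55%, where Bgn and Fmod fall, the medians were -0.03 and -0.02, and at 60% or more, where Hspg2 falls, 0.01 and -0.02. On log2(TPM + 1), Ogn and Has2 in Ad-shJP2 and Dcn in Ad-JP2 lay near the median of genes of like GC content. Dse, Dcn, Lum, Vcan, Fmod, Bgn and Hspg2 lay below the median of their own bin in Ad-shJP2. That scale understates changes of low genes, and at a pseudocount of 0.1 Ogn and Has2 were at -1.20 and -1.71 in Ad-shJP2. With GC content and length corrected there, Ogn was at -0.44 and not called, and Has2 at -0.80 and called. Medians by GC content were not taken at that pseudocount. Over 20 other settings, Dse and Vcan stayed called in Ad-JP2, and Dcn, Bgn, Fmod and Dse stayed called in Ad-shJP2, as did Lum over the 19 settings that gave it a value.

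**Figure D3:**
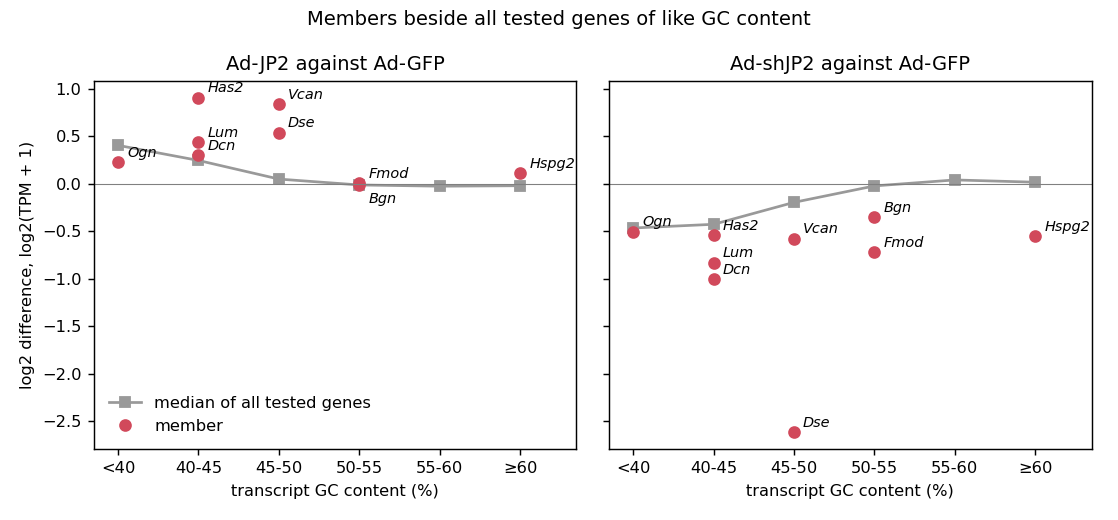
Log2 difference of the 9 tested genes by the bin of GC content of their transcripts in percent, for Ad-JP2 (left) and Ad-shJP2 (right) against Ad-GFP; red points are the genes and the grey line joins the medians of all tested genes in each bin. Dse, at 48.3% GC, lies at -2.62 in the right panel, where the median of its bin is -0.20.

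The rest of the pathway was read from 8 lists of 129 genes, of which 94 were tested. In Ad-JP2, 22 were called higher and 1 lower than in Ad-GFP, beside 13.4% and 1.64% of all genes tested. In Ad-shJP2, 14 were called higher and 49 lower, beside 21.8% and 37.7%. With GC content and length corrected, the counts in Ad-JP2 were 9 higher and 14 lower, beside 6.39% and 7.67% of all genes, and in Ad-shJP2 29 higher and 33 lower, beside 28.3% and 27.0%. With GC content alone they were 11 and 8 in Ad-JP2, beside 7.81% and 7.34%, and 24 and 41 in Ad-shJP2, beside 29.4% and 27.3%. The counts of each list below are to be read beside these shares. In Ad-JP2, more genes were thus called higher than lower as deposited and with GC content alone, and fewer with GC content and length.

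**Figure D4:**
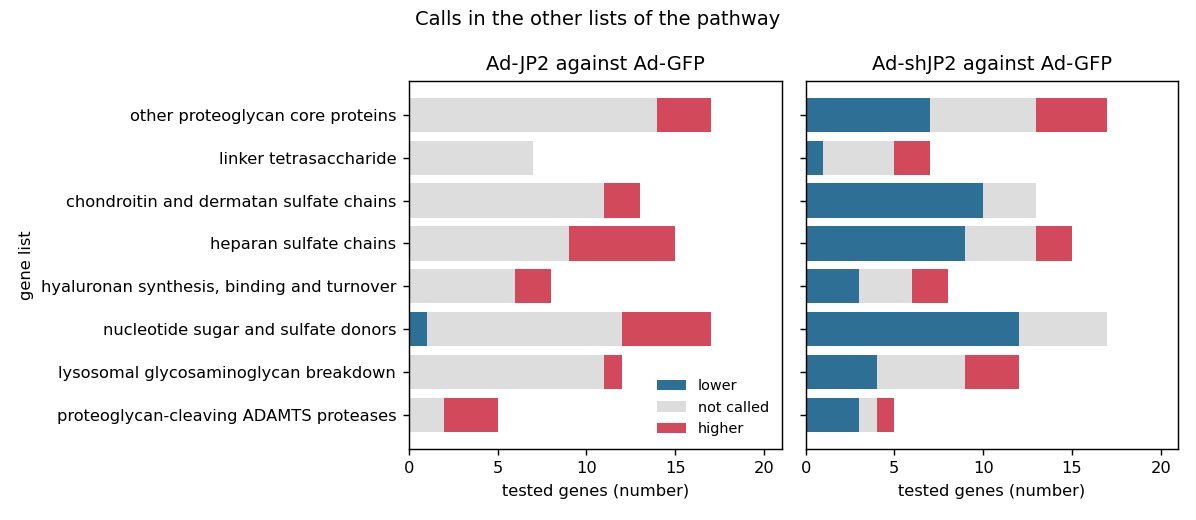
Number of tested genes called higher, called lower and not called in each of 8 lists, for Ad-JP2 (left) and Ad-shJP2 (right) against Ad-GFP, as deposited. In Ad-shJP2, 10 of 13 chondroitin and dermatan sulfate genes and 12 of 17 donor genes were called lower.

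Of 17 other core proteins tested, 3 were called higher in Ad-JP2 and 4 higher and 7 lower in Ad-shJP2 (median log2 difference -0.19), where 21.8% of all genes were higher and 37.7% lower. With GC content and length corrected, 2 were higher and 3 lower in Ad-JP2, and 8 higher and 6 lower in Ad-shJP2, so that the balance turned in both. Gpc6, a glypican anchored to the cell surface, had means of 22.7 TPM in Ad-GFP, 33.5 TPM in Ad-JP2 and 9.26 TPM in Ad-shJP2, and was called in both comparisons (0.54, adjusted p = 0.000949, and -1.21, adjusted p = 9.70e-07). Tgfbr3, betaglycan, a co-receptor for TGF-beta, fell from 2.41 to 0.601 TPM in Ad-shJP2 (log2 difference -1.09, adjusted p = 4.20e-05). Ptprz1, a receptor phosphatase with chondroitin sulfate chains, rose from 1.17 to 3.32 TPM in Ad-JP2 (1.00, adjusted p = 0.000185). Sdc2, a syndecan, rose by 0.28 in Ad-JP2 (adjusted p = 0.000413), a sign that turned with GC content corrected (-0.11, adjusted p = 0.0538). With GC content and length corrected, Sdc2 was called lower in Ad-JP2 (-0.18, adjusted p = 0.00461). The 4 called higher in Ad-shJP2, outside the naming rule, were Sdc1, Sdc3, Gpc1 and Agrn.

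The linker joins chains to core proteins. In Ad-JP2, 0 of its 7 genes were called by limma, as deposited and with either correction. At an unadjusted p under 0.05 there were 0 higher and 1 lower as deposited. In Ad-shJP2, 2 were called higher and 1 lower, beside 21.8% and 37.7% of all genes. With GC content and length corrected 4 were higher and 1 lower, beside 28.3% and 27.0%. With GC content alone 2 were higher and 1 lower, beside 29.4% and 27.3%. In Ad-shJP2, Fam20b, the xylose kinase of the linker, fell from 26.7 to 14.7 TPM (log2 difference -0.82, adjusted p = 1.64e-06). B3gat3, which adds the last linker sugar, rose from 29.7 to 47.7 TPM (0.66, adjusted p = 2.09e-06), and B4galt7 rose by 0.21 (adjusted p = 0.00837).

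Of 13 chondroitin and dermatan sulfate chain genes tested, 10 were called lower and 0 higher in Ad-shJP2 by limma, at an adjusted as at an unadjusted p under 0.05, and 3 were not called. The median was -0.38, and 37.7% of all genes were called lower. The GC and length correction left 4 lower and 2 higher, beside 27.0% and 28.3% of all genes, and with GC content alone 8 and 0, beside 27.3% and 29.4%. Csgalnact1 and Csgalnact2 start the chondroitin chain. Csgalnact1 had means of 5.56 TPM in Ad-GFP, 8.77 TPM in Ad-JP2 and 2.43 TPM in Ad-shJP2 (log2 differences 0.58, adjusted p = 0.00911, and -0.95, adjusted p = 0.000101). With GC content corrected, its Ad-JP2 call was lost (0.39, adjusted p = 0.0508). Csgalnact2 had 3.93, 9.22 and 1.77 TPM (1.06, adjusted p = 0.000136, and -0.83, adjusted p = 9.40e-05), and its Ad-shJP2 call was lost with GC content and length corrected (-0.17, adjusted p = 0.176). Chsy3, a chain polymerase, fell from 2.73 to 1.32 TPM in Ad-shJP2 (-0.69, adjusted p = 0.000126).

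Of 15 heparan sulfate chain genes, 6 were called higher in Ad-JP2, and 9 lower and 2 higher in Ad-shJP2 (median -0.44), beside 13.4% higher in Ad-JP2 and 37.7% lower and 21.8% higher in Ad-shJP2 of all genes. After the GC and length correction, 1 was higher and 3 lower in Ad-JP2, which turns that balance, and 5 were lower and 3 higher in Ad-shJP2. With GC content alone, 1 was higher and 0 lower in Ad-JP2, and 9 were lower and 3 higher in Ad-shJP2. Ext1, a subunit of the heparan sulfate polymerase, had means of 76.3 ± 2.65 TPM in Ad-GFP, 96.4 ± 0.764 TPM in Ad-JP2 and 19.7 ± 1.16 TPM in Ad-shJP2 (SD, n = 3 each). Its log2 difference of -1.90 in Ad-shJP2 was called (SE 0.046, adjusted p = 5.35e-09). That of 0.34 in Ad-JP2 was called as deposited (adjusted p = 0.000998) and lost with GC content corrected (0.04, adjusted p = 0.647). Sulf1, an extracellular enzyme that trims sulfate from heparan sulfate, fell from 145.6 to 65.4 TPM in Ad-shJP2 (-1.14, adjusted p = 7.84e-09). Glce, the epimerase of heparan sulfate and so the counterpart of Dse, fell from 15.5 to 7.85 TPM (-0.90, adjusted p = 3.08e-05) and, in Ad-JP2, was at 20.4 TPM (0.38, adjusted p = 0.0231), a call lost with GC content corrected (0.07, adjusted p = 0.697). Hs6st2, a 6-O-sulfotransferase, rose from 6.43 to 13.3 TPM in Ad-JP2 (0.96, adjusted p = 0.0125). The pair called higher in Ad-shJP2, outside the naming rule, were Hs6st1 and Sulf2.

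Of the 8 other hyaluronan genes tested, 2 were called higher in Ad-JP2, and 2 higher and 3 lower in Ad-shJP2, beside 13.4% higher in Ad-JP2 and 21.8% higher and 37.7% lower in Ad-shJP2 of all genes. Both balances turned with GC content and length corrected, to 0 higher and 3 lower in Ad-JP2 and 4 higher and 1 lower in Ad-shJP2. Cemip, which binds hyaluronan and promotes its breakdown, was the most abundant of those named and fell from 553.5 ± 5.09 to 218.8 ± 2.56 TPM in Ad-shJP2 (SD, n = 3 each; log2 difference -1.34, SE 0.031, adjusted p = 4.43e-09). Cd44, the main hyaluronan receptor, was called higher in Ad-JP2 by 0.14 (adjusted p = 0.00849), a sign that turned with GC content corrected (-0.07, adjusted p = 0.166). With GC content and length corrected, Cd44 was called lower in Ad-JP2 (-0.13, adjusted p = 0.0102). Hmmr, a hyaluronan-binding protein better known as a gene of dividing cells, had 0.861 TPM in Ad-GFP and 1.75 TPM in Ad-JP2 (0.56, adjusted p = 0.00441), a call lost with GC content corrected (0.19, adjusted p = 0.256). Hmmr reached 1 TPM in the 3 Ad-JP2 libraries and in no other, so it entered the test through the group in which it was high. Hyal2, a hyaluronidase, and Tnfaip6, which transfers heavy chains onto hyaluronan, rose in Ad-shJP2 by 0.38 (adjusted p = 0.0165) and 0.30 (adjusted p = 0.0119). The call of Hyal2 was lost with GC content and length corrected (0.28, adjusted p = 0.0609).

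Of 17 genes that supply sugar nucleotides and sulfate, 12 were called lower and 0 higher in Ad-shJP2 by limma, by the adjusted as by the unadjusted p, and 5 were not called. The median was -0.36, and 37.7% of all genes were called lower. The correction for GC and length left 9 lower and 2 higher, and with GC content alone 8 and 3. In Ad-JP2, 5 were called higher and 1 lower, which turned to 2 higher and 4 lower with GC content and length corrected and to 3 and 5 with GC content alone. Gfpt1, the entry enzyme of hexosamine synthesis, had means of 14.5 TPM in Ad-GFP, 24.2 TPM in Ad-JP2 and 4.74 TPM in Ad-shJP2 (log2 differences 0.71, adjusted p = 0.00283, and -1.45, adjusted p = 6.10e-06). With GC content and length corrected its Ad-JP2 call was lost (0.27, adjusted p = 0.163). Ugp2, which makes UDP-glucose, and Papss2, which makes the sulfate donor PAPS, fell by 1.02 (adjusted p = 1.14e-06) and 0.92 (adjusted p = 3.31e-06) in Ad-shJP2. Bpnt2, a Golgi phosphatase that clears a by-product of sulfation, rose from 9.53 to 21.3 TPM in Ad-JP2 (1.08, adjusted p = 5.64e-06). Slc26a2, a sulfate transporter, rose by 0.56 in Ad-JP2 (adjusted p = 0.034), a call lost with GC content corrected (0.28, adjusted p = 0.251). The 1 donor gene called lower in Ad-JP2, outside the naming rule, was Slc35d2.

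Lysosomal breakdown enzymes did not move one way, with 4 of 12 called lower and 3 higher in Ad-shJP2 and a median of -0.02. After the GC and length correction 4 were lower and 5 higher. Ids, which removes sulfate from iduronic acid, had means of 9.11 TPM in Ad-GFP, 17.2 TPM in Ad-JP2 and 3.05 TPM in Ad-shJP2 (log2 differences 0.85, adjusted p = 0.000215, and -1.32, adjusted p = 1.96e-06). With GC content and length corrected, the Ad-JP2 value of Ids was 0.33 and called (adjusted p = 0.0308). With that at a pseudocount of 0.1 the call was lost (0.27, adjusted p = 0.113). Arsb, a sulfatase that acts on dermatan sulfate, fell by 0.68 (adjusted p = 9.94e-06) and Sgsh, a sulfatase of heparan sulfate, by 0.49 (adjusted p = 7.54e-05) in Ad-shJP2.

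Of 5 tested proteases that cut versican and related core proteins, Adamts1, Adamts5 and Adamts9 were called higher in Ad-JP2 and lower in Ad-shJP2, as Vcan was. In Ad-shJP2, Adamts4, outside the naming rule, was called higher (0.31, adjusted p = 0.0082). With GC content and length corrected, 2 of the 5 were higher and 0 lower in Ad-JP2, and 1 was higher and 3 lower in Ad-shJP2. Adamts5 had means of 38.0 TPM in Ad-GFP, 72.0 TPM in Ad-JP2 and 6.82 TPM in Ad-shJP2, and Adamts1 had 49.0, 77.9 and 10.8 TPM. Between Ad-JP2 and Ad-shJP2 their log2 differences were 3.22 (SE 0.046, adjusted p = 1.88e-10) and 2.74 (SE 0.047, adjusted p = 4.39e-10). With GC content and length corrected, the Ad-JP2 value of Adamts5 was 0.275 and called (adjusted p = 0.00301). With that at a pseudocount of 0.1 the call of Adamts5 was lost (0.08, adjusted p = 0.305). Adamts9 had 10.8, 14.4 and 2.59 TPM, and its Ad-JP2 call of 0.38 (adjusted p = 0.012) was lost with GC content and length corrected (0.09, adjusted p = 0.52).

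For each tested gene, the 2 genes with the most similar profile were sought by Pearson's r over the 9 libraries, among genes with a mean of at least 5 TPM. The 9 points form 3 groups and share libraries, so r is a description. For Dse these were Exoc4 (r = 0.9987) and Itpripl2 (0.9986), the latter with means of 138, 173 and 44.6 TPM in Ad-GFP, Ad-JP2 and Ad-shJP2. For Dcn they were Col4a5, a basement membrane collagen chain, and Ppfibp1 (0.9998 each). The nearest for Hspg2 were Notch2 (0.9989) and Fn1, the fibronectin gene (0.9974), with 2930, 3090 and 2150 TPM for Fn1. The nearest for Bgn were Maged1 (0.9992) and Ankrd52 (0.9988), and for Fmod Tmem45a (0.9983) and Inhbb (0.9982). For Vcan they were Dido1 (0.9899) and Celf2 (0.9881), and for Has2 Nes (0.9956) and Kpna3 (0.9934). Lum was nearest to Jam2 (0.9922) and Caprin1 (0.9893), and Ogn to Ncoa4 (0.9829) and Yaf2 (0.9774).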

How the data were processed

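The values were the deposited TPM per gene of 9 libraries, made by the authors from stranded polyA libraries. DRAGEN, Salmon, DESeq2 and the build GRCm39 are named per the submitters' processing notes, and which step each served, and in which version, is not given in the sources used here. No read counts were used, and reads and depths were estimated from the steps of low TPM values times the deposited effective length. The share of low values within 0.1 of a whole read was 94.9% in Ad-GFP replicate 3 and 37.4% to 60.3% in the other libraries, so these are approximate. Effective length fell far below gene length for some genes of low GC content (852.9 of 2566 bases for Ogn). For Hspg2, at 60.9% GC, effective length lay above gene length (15870 against 13137 bases). 0 columns belonged to other samples.

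Genes with at least 1 TPM in at least 3 libraries were tested on log2(TPM + 1) with limma 3.58.1 in R 4.3.3, with 3 group means over all 9 libraries, a mean-variance trend and two-sided tests. Benjamini-Hochberg adjustment ran over all of them, and a gene was called at an adjusted p under 0.05. The fit was tested on simulated data. Other pseudocounts, filters, scalings, a replicate block, fits of 2 groups and fits without each library were tried. GC content came from 1 GENCODE M21 transcript per gene, for 98.7% of tested genes, and length was the deposited gene length. Both were corrected for with splines of 5 degrees of freedom. Named genes were the 10 members, up to 3 called genes per list and comparison with the largest log2 difference, and 2 genes per member of most similar profile, unless marked otherwise. Members, lists and alternatives were chosen with earlier results of these data known.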

Additional observations from a re-analysis of the deposited data

How the results depend on the processing

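In Ad-JP2 against Ad-GFP, the count of genes called higher among the 9 fell from 4 to 2, and the count lower rose from 0 to 1, with GC content and length corrected, at a pseudocount of 1 or of 0.1. In Ad-JP2 against Ad-shJP2 the count lower rose from 0 to 1 with each of the 3 corrections. The count lower in Ad-shJP2 against Ad-GFP went from 9 to 6 with GC content and length at either pseudocount, 7 with GC content alone and 8 with quantile normalization. The count higher in Ad-JP2 against Ad-shJP2 went from 9 to 6 with GC content and length, 7 with the same at 0.1 and 8 with GC content alone. Leaving out 1 library gave 4 to 5 higher in Ad-JP2, 9 lower in Ad-shJP2, and 9 higher in Ad-JP2 against Ad-shJP2. For both corrections at a pseudocount of 1, the shares of all genes stand above beside the counts of the 9. The corrections at a pseudocount of 0.1 and for GC content alone were chosen after seeing the data.

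Signs turned for these log2 differences, and the cause was not tested. In Ad-JP2 against Ad-GFP, Fmod was -0.011 with median-of-ratios scaling, -0.143 with quantile normalization, -0.045 with GC content and length corrected and -0.057 with that at a pseudocount of 0.1, and -0.009 to 0.015 with 1 library left out. Bgn was 0.012 with quantile normalization and -0.024 to 0.011 with 1 library left out. Ogn was -0.267, -0.218 and -0.262 with GC content and length, the same at 0.1 and GC content alone. Hspg2 was -0.253 and -0.414 with the first pair, and Dcn -0.056 at 0.1 and -0.043 with GC content alone. In Ad-shJP2 against Ad-GFP, Ogn was 0.043 with GC content and length and 0.055 with GC content alone, and Has2 0.149 with GC content and length. In Ad-JP2 against Ad-shJP2, Ogn was -0.310 with GC content and length and -0.317 with GC content alone. Both were called lower (limma adjusted p = 0.0351 and 0.0324). Hspg2 was -0.001 with GC content and length, which was not called (limma adjusted p = 0.972). With that at 0.1 Hspg2 was -0.372 and called lower (limma adjusted p = 5.36e-06).

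Of all calls in Ad-JP2 against Ad-GFP, 89.1% were higher as deposited, 66.2% with quantile normalization, 45.5% with GC content and length and 51.5% with GC content alone. In Ad-shJP2 against Ad-GFP 36.6% were higher, and 49.0% with median-of-ratios scaling, 52.4% with quantile normalization and 51.2% with GC content and length. In Ad-JP2 against Ad-shJP2 62.6% were higher, and 50.5%, 42.0% and 46.7% in the same order. The median log2 difference of all genes was -0.115 in Ad-shJP2 against Ad-GFP. Median-of-ratios scaling moved it to -0.016 and quantile normalization to 0.023, and in Ad-JP2 against Ad-shJP2 the values were 0.103, -0.014 and -0.111.

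Same-numbered libraries did not deviate together (r -0.113 to 0.11, 1 of 9 pairs over 0.1, and 5 of 18 best matches with the own number). With the replicate block, 1929, 8226 and 9009 genes were called in the 3 comparisons, against 2135, 8446 and 9152, and among the 10 genes only the Lum call in Ad-JP2 changed. The stricter filter gave no value for Lum, Ogn and Has2. Depth limits Lum, Ogn, Has2 and Aspn in Ad-shJP2, where each rests on about 12.9 reads a library or fewer.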
